A study of Mus musculus with 4 samples.

Results

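The genes described here encode the catalytic subunits and 4 of the partners of the histone H3 lysine 4 (H3K4) methyltransferase complexes, including PTIP. The probe sets with a single platform gene symbol, matched by gene ID to Kmt2a, Kmt2b, Kmt2c, Kmt2d, Setd1a, Setd1b, Ash2l, Wdr5, Paxip1 or Ncoa6, number 22 of the 45037 on the array that are not controls, and all 10 genes are present. Matching went by gene ID because RefSeq lists the old name Mll2 for both Kmt2b and Kmt2d. The cells were immortalized brown preadipocytes of mixed C57/BL6-129 strain with floxed G9a alleles (G9af/f), cultured in DMEM with fetal bovine serum. Vector-treated cells, labelled wild type, gave 2 arrays, and Cre-treated cells, labelled G9a knock out, gave 2 arrays, numbered 1 and 2 in each group. The controls thus carry the floxed alleles too, and exposure to Cre cannot be told apart from loss of G9a. The labels give no culture of origin for each array, so p-values measure only the spread between these arrays, part of which may be technical. The spread within a group is that between numbers 1 and 2, which also differ in sex-linked transcripts (below). Age, culture stage and the route of Cre delivery are not stated.

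H3K4 methyltransferases place methyl groups on lysine 4 of histone H3, a mark of promoters and enhancers, whereas G9a methylates lysine 9, a mark of repressed chromatin. Mammalian cells hold several related complexes, each built around 1 catalytic SET domain protein: MLL1 (Kmt2a), MLL2 (Kmt2b), MLL3 (Kmt2c), MLL4 (Kmt2d), SET1A (Setd1a) or SET1B (Setd1b). WDR5, RBBP5, ASH2L and DPY30 form a core shared by all of them, while PTIP (Paxip1), PA1 (Pagr1a), NCOA6 and the H3K27 demethylase UTX (Kdm6a) belong to the MLL3 and MLL4 complexes. MLL4 and PTIP are known for their part in adipogenesis, where enhancers of adipocyte genes acquire H3K4 methylation.

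The 10 genes are spread over chromosomes 2 (Wdr5 and Ncoa6), 5 (Kmt2c, Setd1b and Paxip1), 7 (Kmt2b and Setd1a), 8 (Ash2l), 9 (Kmt2a) and 15 (Kmt2d), so none is X-linked. The RefSeq promoter table (GRCm38.p6) held 7 of them. In the 250 bases before the start given there, CG dinucleotides (read the same on both strands) numbered 48 for Kmt2c, 29 for Kmt2a, 26 for Kmt2d, 25 for Setd1a, 22 for Paxip1, 12 for Wdr5 and 1 for Ncoa6. The median over all 32851 windows of this length was 6 (quartiles 2 and 16), and 92.1% of windows held at least 1. As many CG dinucleotides as in Kmt2c were found in 0.186% of windows, and as many as in Setd1a in 10.7%. By the brightest probe set of each gene, Setd1a had the largest difference between Cre and vector arrays and Kmt2c the largest between the replicate numbers. For that reason the windows of these genes are shown. Both are written 5′ to 3′ on the strand of the gene, with CG in capitals. Kmt2c lies on the minus strand at chr5:25498784-25499033 and Setd1a on the plus strand at chr7:127777139-127777388. The arrays measure RNA and say nothing about what binds there.
Kmt2c: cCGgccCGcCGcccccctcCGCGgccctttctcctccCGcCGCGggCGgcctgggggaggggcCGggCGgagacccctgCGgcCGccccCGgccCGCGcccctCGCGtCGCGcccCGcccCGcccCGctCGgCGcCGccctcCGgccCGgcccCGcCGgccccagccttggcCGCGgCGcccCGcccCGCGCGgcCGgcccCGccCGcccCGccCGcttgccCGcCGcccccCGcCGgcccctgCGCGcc
Setd1a: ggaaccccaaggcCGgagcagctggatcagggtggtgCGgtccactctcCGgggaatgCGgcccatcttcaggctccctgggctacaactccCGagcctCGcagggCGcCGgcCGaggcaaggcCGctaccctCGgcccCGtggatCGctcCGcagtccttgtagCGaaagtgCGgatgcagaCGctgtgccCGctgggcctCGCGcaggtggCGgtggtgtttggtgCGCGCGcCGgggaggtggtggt

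Each value is a MAS5 signal, 1 per probe set and array, and array medians ran from 50.6 to 78 signal units. Differences were taken after quantile normalization on log2(signal + 16), which understates the change of dim probe sets. Of the 22 probe sets, 20 lay at or above the median of all probe sets and were tested in limma, and each gene is represented by the brightest of its own. Ehmt2, the gene that encodes G9a, gave 2682 and 2688 signal units in vector arrays 1 and 2 and 953 and 912 in Cre arrays 1 and 2. The difference was -1.49 ± 0.20 (limma adjusted p = 0.227, and 0.000281 with the replicate number as a block). Which part of the gene was floxed is not stated, so the probe set may lie outside it. Of the preadipocyte and mesenchymal markers, Col1a1 (11848 to 15187 units) and Pdgfrb (3123 to 5669) were bright in all 4 arrays. Dlk1 read 1690 in Cre array 1 and 4882 to 5421 elsewhere. Cd34 (68.7 to 151.2 units) and Ebf2 (72.9 to 222.7) were dim in all 4 arrays. The 5 mature adipocyte markers with a probe set were all below the filter, with summed signals of 33.3 to 51.3, as were the 5 endothelial markers (47.6 to 286). Of the 5 skeletal muscle markers, Myod1, Myog, Myf5 and Pax7 were below the filter and Ckm (60.2 to 135.8 units) above it. The Ckm Cre arrays lay above the vector arrays without overlap, as in 17.5% of all genes, and Ckm did not pass in either fit. Of the 6 macrophage and leukocyte markers, Cd14, Csf1r and Cd68 lay above the filter and did not pass in either fit, the list's summed signal was 767 to 832 in vector and 758 to 976 in Cre arrays, and Ptprc, the pan-leukocyte marker, read 2.9 to 11.9. Their part in the results was not tested. Of the 7 preadipocyte markers with a probe set, 0 passed with or without the replicate block, against 4.23% and 0% of all genes tested. In 3 of the 7 the Cre arrays lay below the vector arrays without overlap, against 13.6% of all genes. With the block 3 had an unadjusted limma p under 0.05, against 18.4% of all genes. In such bulk RNA, fewer cells of a type and less RNA per cell cannot be told apart.

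No member gene passed the test between Cre and vector cells. With limma 0 of 10 had an adjusted p under 0.05, against 0% of the 11079 genes tested and 0.00888% of the 22519 probe sets, and 0 of 10 had an unadjusted p under 0.05. With the replicate number as a block, again 0 of 10 passed, against 4.23% of genes, and 1 had an unadjusted p under 0.05, against 18.4% of genes. Their adjusted p-values ran from 0.252 to 0.987 in that fit, and from 0.804 to 1 under the other alternatives. The differences were small: the brightest probe sets lay between -0.36 and 0.21 on the log2 scale, at most 1.28-fold. The 95% intervals of single genes reached from -0.91 to 1.04 at their widest, and from -0.72 to 0.61 with the block, so changes of this size cannot be told from none here, and the result does not show that the genes are unaffected.

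**Figure D1:**
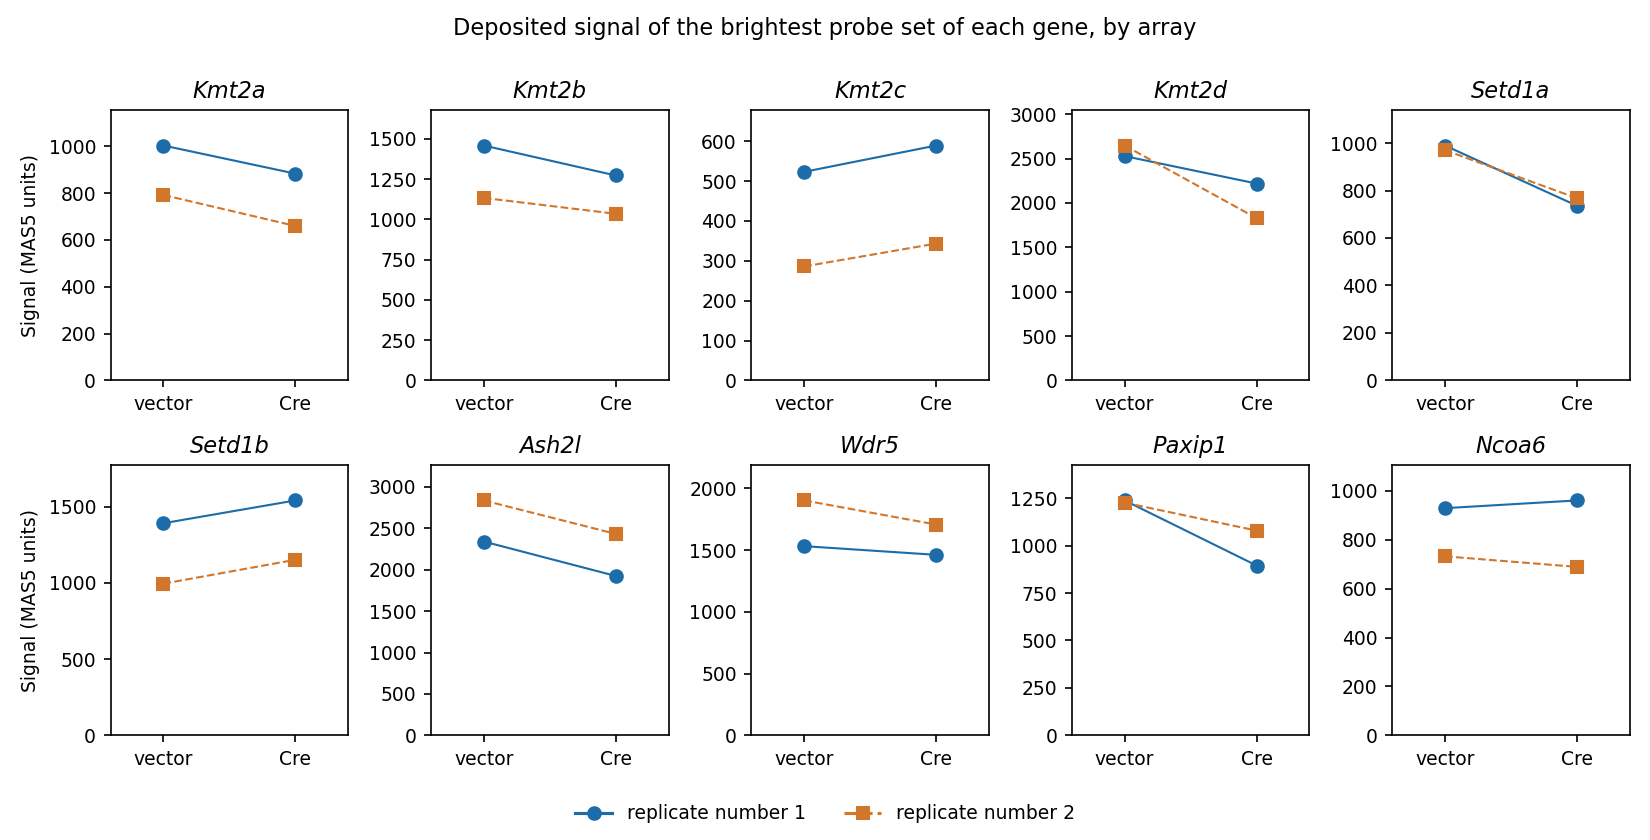
Deposited MAS5 signal (y axis, signal units, linear from 0, scaled separately for each gene) of the brightest probe set of each of the 10 genes in vector and Cre arrays; lines join the arrays of 1 replicate number. Setd1a, Kmt2d and Paxip1 are the genes whose Cre arrays both lie below both vector arrays, and Kmt2c is lower in number 2 than in number 1 in both groups.

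The signs were uneven. Cre lay below vector in 7 of the 10 genes, against 48.9% of all genes tested, and the 7 were lower in both pairs of same-numbered arrays, against 30.2% of all genes. Kmt2c and Setd1b were higher in both pairs, against 32.8%, and Ncoa6 had opposite signs. The median over the 10 genes was -0.15, beside 0.0073 over all genes, and -0.15 and -0.14 within pairs 1 and 2. In 3 of the 10 genes (Setd1a, Kmt2d and Paxip1) the groups did not overlap, all with Cre lower. Over all genes 13.6% did so in that direction, 17.5% with Cre higher and 31.1% in either. All genes were measured on the same 4 arrays, and these counts are descriptions without a test.

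**Figure D2:**
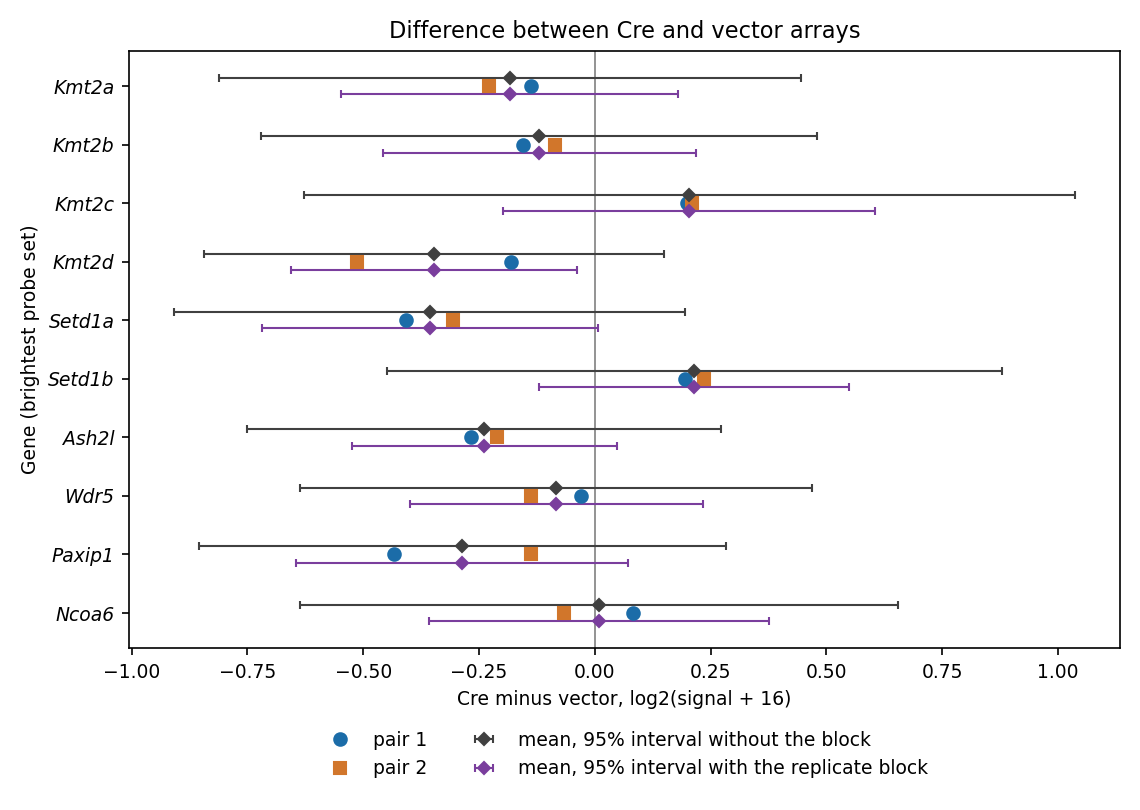
Cre minus vector on the log2(signal + 16) scale (x axis) for the brightest probe set of each gene (y axis): diamonds are means with 95% limma intervals without and with the replicate block, circles and squares the differences within pairs 1 and 2. All intervals without the block span 0, and the pairs lie on the same side of 0 in 9 of the 10 genes.

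Kmt2a and Kmt2b, the genes of MLL1 and MLL2, which act in the complexes that hold menin, differed little. Kmt2a gave 1003 and 792 signal units in vector arrays 1 and 2 and 883 and 659.6 in Cre arrays 1 and 2. The groups overlapped, since Cre 1 was above vector 2, while Cre 2 was the lowest of the 4 arrays. The log2 difference was -0.18 ± 0.26 (SE, n = 2 against 2; 95% interval -0.81 to 0.44; limma adjusted p = 0.999), with -0.14 and -0.23 within pairs 1 and 2. Kmt2b gave 1458 and 1133 units in the vector arrays and 1272 and 1034 in the Cre arrays. It showed the same order of arrays as Kmt2a, with a difference of -0.12 ± 0.25 (interval -0.72 to 0.48). Within pairs 1 and 2 it was -0.16 and -0.085.

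Kmt2c and Kmt2d, which encode the enhancer-associated methyltransferases MLL3 and MLL4, leaned in opposite directions by their brightest probe sets. Their other tested probe sets gave 0.14 and -0.09 for Kmt2c and 0.09 for Kmt2d. Kmt2d gave 2527 and 2647 units in the vector arrays and 2218 and 1828 in the Cre arrays. Both Cre arrays were below both vector arrays, and Cre 2 was the lowest. The difference was -0.35 ± 0.20 (1.27-fold; interval -0.84 to 0.15; limma adjusted p = 0.999). With the block the interval was -0.66 to -0.04, with a limma adjusted p of 0.252, so Kmt2d did not pass there either. Kmt2c gave 523 and 286 units in the vector arrays and 589 and 343 in the Cre arrays. Each Cre array was above the vector array of its number, by 0.20 and 0.21 log2 units, while the groups overlapped widely because number 2 was lower in both. Its difference was 0.20 ± 0.34 (interval -0.63 to 1.04), and -0.20 to 0.61 with the block.

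The SET1 genes Setd1a and Setd1b, whose products carry out much of the H3K4 trimethylation at promoters, also had opposite signs. Setd1a gave 989.7 and 970.4 units in the vector arrays and 736 and 767.5 in the Cre arrays. The arrays of each group lay close together, without overlap between the groups. The difference was -0.36 ± 0.23 (1.28-fold; interval -0.91 to 0.20; limma adjusted p = 0.999, and 0.323 with the block, where the interval was -0.72 to 0.01). Setd1b gave 1391 and 994 units in the vector arrays and 1540 and 1151 in the Cre arrays. As for Kmt2c, Cre was higher within each number (0.19 and 0.24) but the numbers parted the arrays more than Cre did. Its difference was 0.21 ± 0.27 (interval -0.45 to 0.88). Whether the Cre effect differs between the catalytic genes was not tested.

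Ash2l and Wdr5 encode core subunits; WDR5 holds the SET domain protein to the core, and ASH2L with RBBP5 and DPY30 stimulates its activity. Ash2l gave 2341 and 2837 units in the vector arrays and 1924 and 2433 in the Cre arrays. Cre was lower within each number, by -0.27 and -0.21, and the groups overlapped because Cre 2 exceeded vector 1. The difference was -0.24 ± 0.21 (interval -0.75 to 0.27). Wdr5 gave 1533 and 1903 units in the vector arrays and 1462 and 1708 in the Cre arrays, with overlap between the groups. Its difference was -0.084 ± 0.23 (interval -0.64 to 0.47).

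Paxip1 encodes PTIP, a BRCT domain protein that sits in the MLL3 and MLL4 complexes and also acts in the response to DNA breaks. It gave 1238 and 1227 units in the vector arrays and 895 and 1079 in the Cre arrays. The vector arrays were nearly alike and both Cre arrays lay below them, Cre 1 more so. The difference was -0.29 ± 0.23 (1.22-fold; interval -0.86 to 0.28; limma adjusted p = 0.999, and 0.43 with the block, where the interval was -0.64 to 0.07). Within pairs 1 and 2 it was -0.43 and -0.14. Ncoa6, a nuclear receptor coactivator found in the same complexes, gave 929.7 and 732.5 units in the vector arrays and 961 and 689 in the Cre arrays. Number 1 was above number 2 in both groups, and Cre moved the arrays in opposite directions. Its difference of 0.0085 ± 0.26 (interval -0.64 to 0.65) was the smallest of the 10.

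Several genes have more than 1 probe set, and these did not always give the same picture. Of the 20 tested, 0 passed (3.14% of all probe sets did with the block), 14 had a lower Cre mean (53.5% of all), 13 were lower in both pairs (33.2%) and in 5 the Cre arrays lay below the vector arrays without overlap (15.8%). All 4 probe sets of Paxip1 lay lower in Cre cells, from -0.40 to -0.13, and in 3 of them the groups did not overlap. The probe set at -0.40 is of the x type, whose probes can match other transcripts. The second Wdr5 probe set read 650 and 692 units in the vector arrays and 349.7 and 599 in the Cre arrays, a difference of -0.56 ± 0.36. That was the largest difference among the 20 tested probe sets, mostly from Cre array 1, with -0.93 and -0.18 within pairs 1 and 2, and it did not pass (limma adjusted p = 0.999, and 0.215 with the block). Both Ash2l probe sets were lower (-0.24 and -0.43) and both Setd1b probe sets higher (0.21 and 0.10). Both Kmt2a probe sets were lower (-0.18 and -0.22). The 3 tested probe sets of Kmt2c ranged from -0.09 to 0.20 and the 2 of Kmt2d differed in sign, with 0.09 for a dim one (64.7 to 97.4 units). The 2 probe sets that did not reach the filter belong to Kmt2c (39.5 to 86 units) and Setd1a (9 to 22 units). Kmt2b and Ncoa6 have 1 probe set each.

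**Figure D3:**
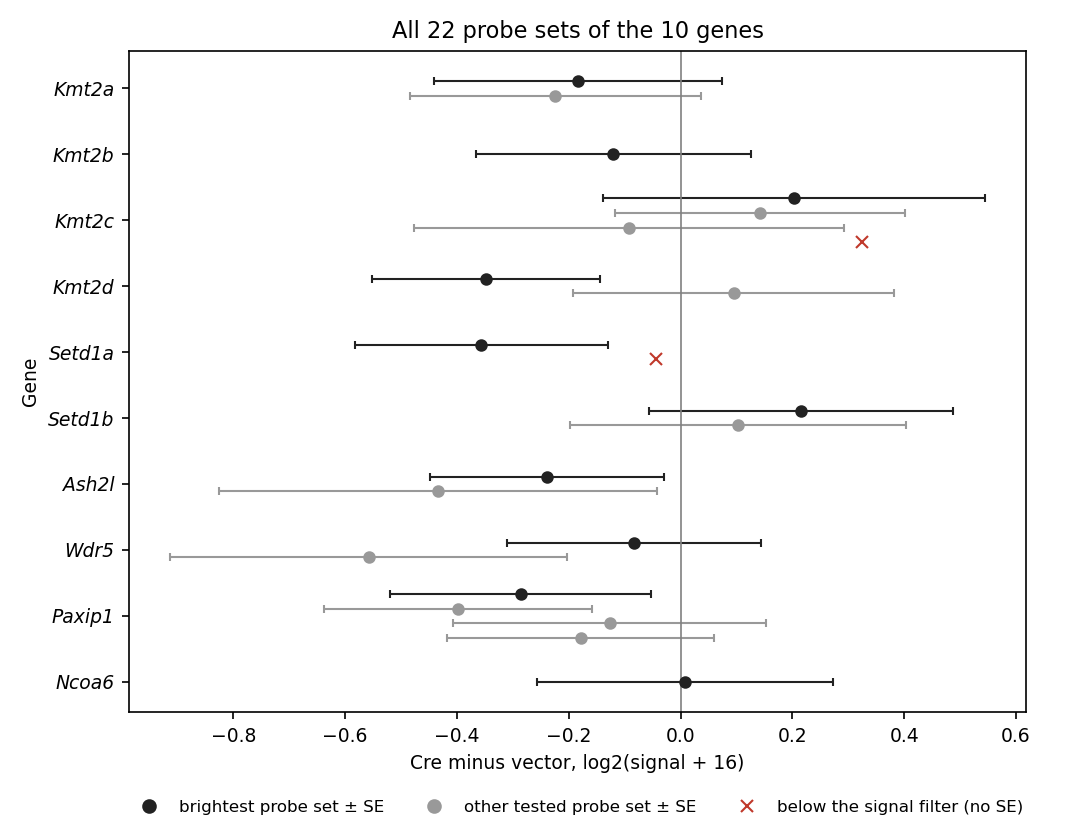
Cre minus vector on the log2(signal + 16) scale (x axis) for all 22 probe sets, grouped by gene (y axis), with limma standard errors without the block; crosses are the 2 probe sets below the filter. Most lie between -0.5 and 0.3, and the Kmt2c and Kmt2d probe sets fall on both sides of 0.

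The arrays of replicate numbers 1 and 2 differed more than Cre and vector arrays did. Sex-linked transcripts differed between the numbers: Xist read 11049 and 9810 in the number 1 arrays and 41.8 and 58 in the number 2 arrays. Over the 10 genes the median absolute difference between the numbers was 0.28 log2 units, against 0.21 between Cre and vector. Over all genes these medians were 0.26 and 0.18. In 7 of the 10 genes the numbers did not overlap, against 53.5% of all genes, and 5 were lower in number 2 within both groups, against 35.3%. An unadjusted p under 0.05 was found for 2 of them, against 33.2% of all genes. In the fit with genotype and number, 1 of the 10 genes passed (16.7% of all genes and 15% of probe sets did, and 8.26% of genes with number 2 lower): Kmt2c, lower in number 2 by -0.63 ± 0.18 (interval -1.03 to -0.22; limma adjusted p = 0.0424), with -0.63 in vector and -0.62 in Cre arrays. The other tested Kmt2c probe sets differed by -0.70 and -0.17 and did not pass (limma adjusted p = 0.0728 and 0.64). The Kmt2c call was lost in 4 of 9 alternatives that kept the gene (limma adjusted p from 0.0848 to 0.13): without the filter, without the intensity trend, with median centring and with the mean over its probe sets. It ran from 0.00857 to 0.0488 in the other 5. Of 7 preadipocyte and mesenchymal markers tested, 3 also passed between the numbers: Thy1 (2.51) and Ebf2 (1.54) were higher and Pdgfrb (-0.55) lower in number 2, and the summed signal of the list was 23373 to 23781 in number 1 and 23566 to 25444 in number 2. Array medians were 67.2 and 78 signal units in number 1 and 50.6 and 52.5 in number 2. The part of sex, cell state and array scale in the Kmt2c difference was not tested.

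Setd1b differed between the numbers by -0.42 ± 0.15, Ncoa6 by -0.34 ± 0.17, Kmt2a by -0.31 ± 0.17 and Kmt2b by -0.30 ± 0.15, without passing (limma adjusted p from 0.0868 to 0.228). Ash2l and Wdr5 lay on the other side, by 0.25 ± 0.13 and 0.25 ± 0.14 (limma adjusted p = 0.213 and 0.266). Second tested probe sets gave 0.62 for Ash2l, 0.56 for Wdr5, -0.47 for Setd1b and -0.26 for Kmt2a. None of these passed (limma adjusted p from 0.0958 to 0.362). The direction depended on the scaling for some of these genes. Median centring moved the median of all genes between the numbers from 0.0016 to 0.32, turned Kmt2a, Kmt2b and Kmt2d to 0.015, 0.062 and 0.28, and called Ash2l, Wdr5 and Paxip1 higher in number 2. It also raised the share of called probe sets that were higher in number 2 from 49.3% to 87.5%, while the deposited scaling gave 36.4%.

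Kdm6a, the X-linked gene of UTX, also differed between the numbers. It read 417 and 492 units in the number 1 arrays (vector and Cre) and 126 and 149 in the number 2 arrays, a difference of -1.39 ± 0.20 (limma adjusted p = 0.00202). Its second tested probe set differed by -0.67 (limma adjusted p = 0.0561). Uty, the Y-linked relative of UTX, went from 46.9 to 78.4 between the vector arrays and from 70.6 to 109.9 between the Cre arrays (0.91 ± 0.28; limma adjusted p = 0.0504). The Y-linked H3K4 demethylase gene Kdm5d went from 45.1 to 235 between the vector arrays and from 56.3 to 281 between the Cre arrays (2.33 ± 0.24; limma adjusted p = 0.000421). Kdm5c, its X-linked relative, differed by -0.58 ± 0.19 (limma adjusted p = 0.0625), and its 6 tested probe sets ranged from -0.77, which passed (limma adjusted p = 0.0363), to 0.19. Between Cre and vector, Kdm6a differed by 0.20, Uty by 0.30, Kdm5d by 0.11 and Kdm5c by 0.025, none of them past the threshold in either fit. The Kdm5c probe sets disagreed here too: the next brightest differed by -0.57 ± 0.25, with -0.82 and -0.33 within pairs 1 and 2 and no overlap between the groups, and did not pass (limma adjusted p = 0.999, and 0.143 with the block). The other 4 tested ranged from -0.40 to 0.19. Of 42 tested pathway genes outside the 10, 5 passed between the numbers, a smaller share than the 16.7% of all genes, with Kdm5d and Kdm6a among them. The remaining 3, chosen after their values were seen, were lower in number 2. Kdm2b, a histone demethylase gene, differed by -0.88 (limma adjusted p = 0.0037). Its second tested probe set gave -0.49 and did not pass (limma adjusted p = 0.0634). Bptf, which encodes a reader of H3K4 trimethylation, differed by -0.47 (limma adjusted p = 0.0283). The other tested Bptf probe sets gave -0.23 and -0.28 and did not pass (limma adjusted p = 0.378 and 0.328). The coactivator gene Ncoa2 differed by -0.67 (limma adjusted p = 0.0455).

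**Figure D4:**
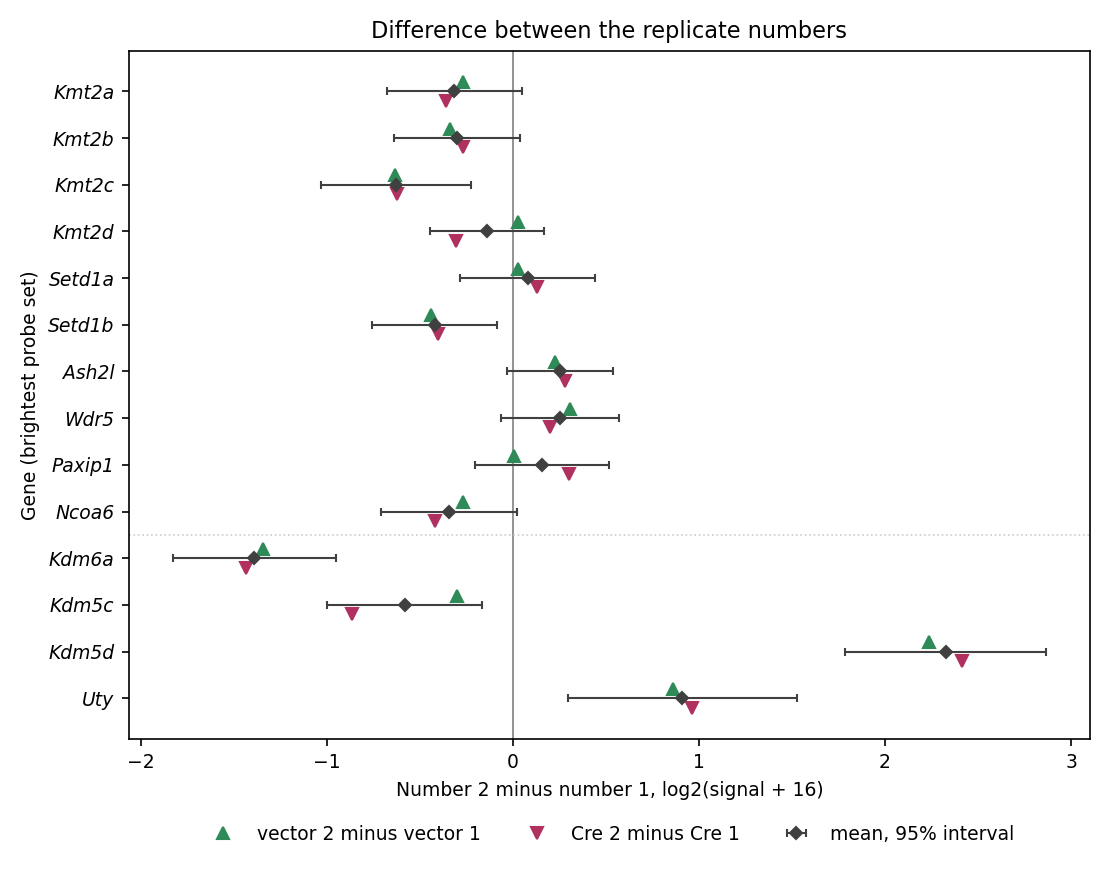
Number 2 minus number 1 on the log2(signal + 16) scale (x axis) for the 10 genes and, below the dotted line, 4 sex-linked genes of H3K4 or H3K27 demethylases: diamonds are means with 95% limma intervals, triangles the differences within vector and within Cre arrays. Kmt2c is the member whose interval lies farthest below 0 (-1.03 to -0.22), and Kdm6a and Kdm5d stand farther from 0 than all 10 genes.

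Among 46 other genes of the pathway, 44 had a probe set and 42 were tested. Without the block 0 passed, and 1 had an unadjusted limma p under 0.05, against 5.07% of genes. With the block 1 rose and 0 fell, against 4.23% of all genes passing in either direction. In that fit 6 had an unadjusted limma p under 0.05, against 18.4% of genes. The median of the 42 was -0.077, with 17 higher and 25 lower, where 48.9% of all genes were lower. In 9 of them the Cre arrays lay below the vector arrays without overlap and in 2 above, against 13.6% and 17.5% of all genes. The gene that rose was Smyd3, which encodes a SET and MYND domain methyltransferase first described as an H3K4 enzyme. It read 393 and 349.9 units in the vector arrays and 892 and 601 in the Cre arrays, without overlap between the groups. The difference was 0.97 ± 0.27 (1.96-fold), with 1.23 and 0.71 within pairs 1 and 2. Its limma adjusted p was 0.779 without the block, 0.0212 with it, and between 0.461 and 1 under the other 14 alternatives. A second, dim Smyd3 probe set below the filter differed by -0.65. Smyd1, of the same family (0.29 ± 0.31), and Setd7, another methyltransferase gene of the same list (0.02 ± 0.20), did not pass.

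The remaining core subunits, Rbbp5 and Dpy30, differed by -0.24 ± 0.25 and -0.11 ± 0.16. In both the Cre arrays lay below the vector arrays without overlap, as in 13.6% of all genes. Of the SET1 partners, Hcfc1, a transcriptional cofactor gene, differed by -0.32 ± 0.21, Wdr82 by -0.17 ± 0.16 and Cxxc1, which encodes the CpG-binding subunit, by -0.12 ± 0.23. The other tested Hcfc1 probe sets differed by -0.59 ± 0.23 and -0.38 ± 0.24. The MLL1 and MLL2 partners Men1, the gene of menin, Psip1 and Hcfc2 differed by -0.24 ± 0.24, -0.14 ± 0.22 and 0.18 ± 0.29. The other tested Hcfc2 probe sets differed by 0.08 and -0.15. Pagr1a, which encodes the PTIP partner PA1, differed by 0.06 ± 0.22. The limma adjusted p of all these was 0.999 without the block. With the block it ran from 0.126, for the Hcfc1 probe set at -0.59, to 0.892, so none of them passed there either.

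H3K4 demethylases and readers of H3K4 methylation held no gene past the threshold between Cre and vector in either fit. Of the 7 demethylase genes 3 were higher and 4 lower, and those with the smallest p were Kdm5a (0.34 ± 0.28), Kdm1b (-0.24 ± 0.25) and Kdm5b (-0.082 ± 0.24). Of 9 tested reader genes 2 were higher and 7 lower. Chd1, a chromatin remodeller that binds H3K4 methylation, read 469 and 635 units in the vector arrays and 324 and 423 in the Cre arrays. Its difference of -0.56 ± 0.32, nearly equal within the pairs (-0.57 and -0.54), did not pass (limma adjusted p = 0.999, and 0.147 with the block), and its other 3 tested probe sets lay between -0.15 and 0.080. Ing5 and Ing3, of a PHD finger family, differed by -0.34 ± 0.27 and 0.32 ± 0.28. Their other tested probe sets gave -0.53 and -0.30 for Ing5 and -0.25, 0.51 and 0.53 for Ing3. Among genes that work with PTIP at DNA breaks, H2ax differed by -0.32 ± 0.16, Trp53bp1 by -0.13 ± 0.21 and Rif1 by -0.13 ± 0.24. Among coactivators of nuclear receptors, Ncoa1 differed by 0.49 ± 0.30, Ep300 by -0.44 ± 0.28 and Ncoa3 by -0.27 ± 0.23. None of these passed in either fit.

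**Figure D5:**
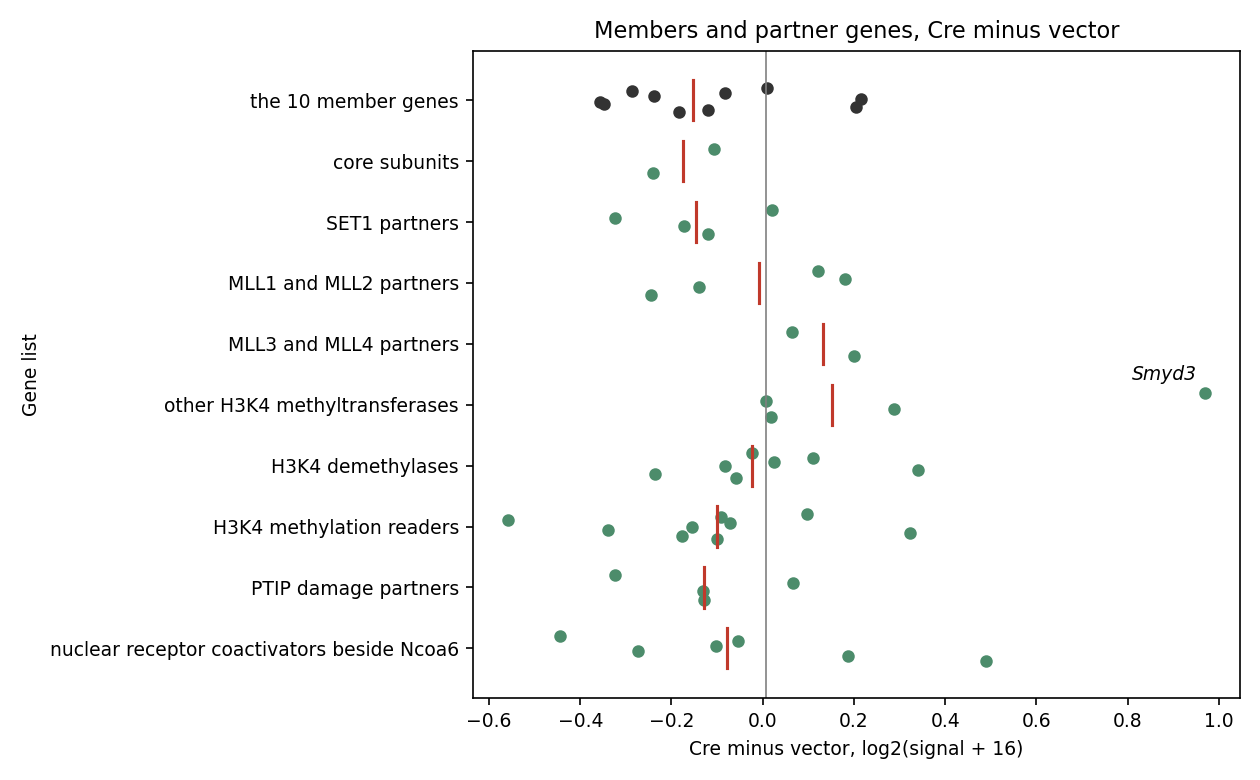
Cre minus vector on the log2(signal + 16) scale (x axis) for the 10 genes and each list of partner genes (y axis); points are genes by their brightest tested probe set, red bars list medians, and the grey line the median of all genes tested (0.0073). Smyd3, at 0.97, is the farthest point from 0.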

How the data were processed

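The authors deposited 1 signal intensity per probe set and array, on a linear scale, made with MAS5 per the submitters' processing notes; no version or setting is stated there. Each array's mean after trimming 2% from each end was 500.003, so arrays had been scaled alike. The 64 control probe sets were left out. Intensities were quantile normalized, since the largest gap between array medians was 0.497 (log2), and taken as log2(signal + 16). Probe sets with a mean log2 signal at or above the 50th percentile (22519) were fitted in limma 3.58.1 under R 4.3.3 (lmFit, then eBayes with trend), with Benjamini-Hochberg adjustment over all of them and a threshold of 0.05. Symbols were updated by gene ID to GRCm38.p6.

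The members and lists were chosen with earlier results of these data known. Named are all members, Ehmt2, partner genes past the threshold in either fit, otherwise the 3 of a list with the smallest p, and 4 sex-linked genes; further genes were chosen after their values were seen. Across probe sets, arrays sharing a number deviated from their groups together (correlation 0.603), and sex-linked transcripts parted the numbers, so same-numbered arrays were treated as pairs. The fit without the block, with 2 residual degrees of freedom, was the main one; the block leaves 1. With 2 arrays a group, the smallest two-sided exact permutation p is 0.333. The number of arrays limits all precision. The fits were also run on simulated data with independent noise and changes larger than those of the members. That run does not show how well differences as small as the members' would be found.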

Additional observations from a re-analysis of the deposited data

Results flagged for a closer look

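In each of 7 named genes the difference between Cre and vector pointed in opposite directions in the arrays numbered 1 and in those numbered 2, which is 1 pair of arrays each; the difference between the pairs was not tested. For Ncoa6 it was 0.08 and -0.07, so pair 2 lay -0.15 from pair 1. For Pagr1a it was 0.26 and -0.14 (-0.40 apart), for the brightest Kdm5c probe set 0.31 and -0.26 (-0.56 apart; the next brightest was lower in both pairs, -0.82 and -0.33), for Trp53bp1 0.04 and -0.30 (-0.34 apart) and for Setd7 0.11 and -0.07 (-0.18 apart). Pair 1 was the lower one for Psip1 (-0.37 and 0.09, 0.46 apart) and Ing3 (-0.01 and 0.66, 0.67 apart). Over all genes tested, 32.8% were higher and 30.2% lower in both pairs, so opposite signs are not particular to these 7.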

How the results depend on the processing

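Under the 11 alternatives that kept all arrays, 107 of 109 differences between Cre and vector of single members kept their direction and stayed short of the threshold; Ncoa6 turned to -0.019 with the deposited scaling and -0.13 with median centring. The members' median, -0.15, was -0.14 with a pseudocount of 64, -0.18 with the 75th percentile filter (which left Kmt2c out), -0.19 with the deposited scaling, -0.30 with median centring (where the median of all genes moved from 0.0073 to -0.094) and -0.17 with the mean of a gene's probe sets. Between 6 and 8 members stayed lower in both pairs, 8 with median centring, where 43.9% of all genes were. Leaving out 1 array unbalances the numbers: the members' median ran from -0.20 to -0.092, and single members from -0.29 to 0.047 (Kmt2b), -0.11 to 0.52 (Kmt2c), -0.21 to 0.22 (Ncoa6), -0.0044 to 0.44 (Setd1b) and -0.24 to 0.070 (Wdr5). Other members kept their direction but also moved: Kmt2a from -0.37 to -0.0043, Kmt2d from -0.50 to -0.19, Paxip1 from -0.44 to -0.13, Ash2l from -0.38 to -0.099 and Setd1a from -0.42 to -0.30. Kmt2c was -0.11 without vector array 2 or Cre array 1, and 0 members passed in any of these.

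Over all probe sets 2 passed between Cre and vector; the replicate block gave 708, median centring 16, a pseudocount of 1 and the 75th percentile filter 1 each, no filter and no trend 0 each, and leaving out an array 5 to 29. Partner genes called were 0, and 1 with the replicate block. The replicate block changed no other call named here except that of Ehmt2, which fell there (limma adjusted p = 0.000281, against 0.227 without it). Between the numbers 3376 probe sets passed, 780 without the filter, 150 without the trend and 7277 with median centring. Members passing between the numbers were 1, with 0 without the filter, with the 75th percentile filter, without the trend and with the mean of probe sets, and 3 with median centring. Median centring turned Kmt2a to 0.015, Kmt2b to 0.062 and Kmt2d to 0.28, and the mean of probe sets turned Paxip1 to -0.033. For Kmt2d the numbers differed by -0.31 to 0.028 when 1 array was left out. Without 1 array, the fit with genotype and number has no residual degrees of freedom, so only values were taken there. The causes of these changes were not tested. MAS5 signals come without a background value or detection call here, so the lower limit of detection of dim probe sets is unknown.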
